A study of Mus musculus with 24 samples.

Results

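The genes described here are the chemokine ligands and their receptors: every gene on the array whose symbol is Ccl, Cxcl, Ccr or Cxcr followed by digits, or begins with Cx3cl, Cx3cr, Xcl or Xcr, with Cxcl15 left out. They numbered 47 of the 18193 genes that a probe set assigned to 1 gene could measure, and comprised 31 ligands and 16 receptors. Where a gene had several probe sets, the one brightest on average across the 24 arrays was read, which concerned 17 of the 47. The values are log2 expression, so a difference of 1 is a 2-fold change, and levels are compared between groups within a probe set and never between genes.

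The arrays fall into 5 groups of mouse lung tissue. The 3 kinds of tumour were sampled as nodules cut out by eye from bitransgenic mice that had eaten doxycycline chow for 3 to 6 months: L858R tumours (labelled C/L858R, strain FVB mixed, n = 4), L858R+T790M tumours (C/L+T, strain FVB, n = 5) and T790M tumours (C/T790M, strain FVB, n = 5). The series title names mutant EGFR, the epidermal growth factor receptor; L858R and T790M are changes in that protein, and the labels do not spell out what C stands for, nor the promoter that drives the transgenes. Normal lungs came from littermates with no transgene or with 1 of the pair, also on doxycycline, and formed an FVB set (n = 5) and an FVB mixed set (n = 5, called mixed-strain normals here). Doxycycline was thus common to all 5 groups. Nothing in the labels ties an array to its own mouse; p-values here are therefore about the spread among arrays, part of which may be technical.

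Chemokines are small secreted proteins that guide white blood cells along gradients by binding receptors that signal through inhibitory G proteins. CXC ligands such as Cxcl1, Cxcl2 and Cxcl3 act on Cxcr2 and draw neutrophils into the lung, the interferon-induced Cxcl9, Cxcl10 and Cxcl11 act on Cxcr3 of T and NK cells, and CC ligands such as Ccl2 and Ccl12 act on Ccr2 of monocytes. Other ligands, such as Cxcl12, are made constantly by stromal cells. Through its receptor Cxcr4, Cxcl12 also holds cells in place.

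The samples were whole nodules and whole pieces of lung, so fewer cells of a type and less RNA per cell cannot be told apart. The epithelial marker Sftpc lay between 14.66 and 14.90 in all 24 arrays, so lung tissue was present in each. Of 12 endothelial markers, 12, 12 and 11 were lower in L858R, L858R+T790M and T790M tumours than in their normals, and 8 of 9 epithelial markers were higher in each. Markers of T cells, NK cells and B cells were called lower and none higher: 7, 8 and 8 of 9 T cell markers, 7, 7 and 9 of 9 NK cell markers and 6, 5 and 4 of 9 B cell markers were lower, in the same order of tumours. Some arrays, picked after the values were seen, stood apart from others of their group. L858R+T790M tumours 1 and 5 had a mean of 9.19 and 10.90 over 17 interferon-response genes, against 7.47 to 8.16 in tumours 2, 3 and 4, and were the 2 highest of their group for all 17 of those genes and for 15 of 21 NF-kappaB and inflammatory genes. FVB normals 2 and 5 had a mean of 9.72 and 9.81 over 9 neutrophil markers, against 8.14 to 8.64 in FVB normals 1, 3 and 4. T790M tumour 1 had an interferon-response mean of 9.46, against 7.61 to 8.29 in T790M tumours 2 to 5, and without it 14 members were called in T790M tumours, 4 higher and 10 lower, in place of 16: the calls of Ccl12 and Ccr6 were lost and no other member call changed. Member calls that change without L858R+T790M tumours 1 and 5, or without FVB normals 2 and 5, are named below.

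The promoters of 4 ligands are shown first because Cxcl3 had the largest tumour difference of the 47 members and shares a short promoter stretch with Cxcl1 and Cxcl2, while Cxcl10 stands for the ligands that interferon induces. Sequences are the 250 bases before the annotated start, 5′ to 3′ on the strand of the gene, from RefSeq with build GRCm38.p6: Cxcl1 at chr5:90890995-90891244 (plus strand), Cxcl2 at chr5:90903649-90903898 (plus strand), Cxcl3 at chr5:90785851-90786100 (plus strand) and Cxcl10 at chr5:92348890-92349139 (minus strand). Capitals mark matches to the kappaB consensus, the binding motif of NF-kappaB, and, as the first capitals of Cxcl10, to the interferon-stimulated response element, searched as a pair of GAAA repeats with NN between them.
Cxcl1: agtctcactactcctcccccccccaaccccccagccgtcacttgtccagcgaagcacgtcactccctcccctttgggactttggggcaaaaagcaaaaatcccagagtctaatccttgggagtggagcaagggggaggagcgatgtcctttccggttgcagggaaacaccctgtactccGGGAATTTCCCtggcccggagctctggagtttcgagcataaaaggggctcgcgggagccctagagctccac
Cxcl2: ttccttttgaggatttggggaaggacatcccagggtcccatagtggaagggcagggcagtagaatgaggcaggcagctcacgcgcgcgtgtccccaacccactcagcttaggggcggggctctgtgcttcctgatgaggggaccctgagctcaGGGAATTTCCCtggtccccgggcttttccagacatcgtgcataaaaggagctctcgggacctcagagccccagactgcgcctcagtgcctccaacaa
Cxcl3: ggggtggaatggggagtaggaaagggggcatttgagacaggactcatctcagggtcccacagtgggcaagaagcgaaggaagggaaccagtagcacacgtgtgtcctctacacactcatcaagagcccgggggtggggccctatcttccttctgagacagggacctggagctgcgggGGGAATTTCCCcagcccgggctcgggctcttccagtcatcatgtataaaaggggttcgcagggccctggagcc
Cxcl10: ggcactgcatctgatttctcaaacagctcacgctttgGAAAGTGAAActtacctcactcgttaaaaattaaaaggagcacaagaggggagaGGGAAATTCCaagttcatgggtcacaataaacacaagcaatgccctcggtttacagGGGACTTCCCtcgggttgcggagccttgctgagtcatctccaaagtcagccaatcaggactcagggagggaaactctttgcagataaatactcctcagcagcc

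Cxcl1, Cxcl2 and Cxcl3 each hold the same 11 bases, GGGAATTTCCC, which begin at base -71, -97 and -73 from the start. The stretch holds a kappaB match on each strand, and these matches overlap. Over all 32851 promoter windows of 300 bases (250 before to 50 after the start), searched on both strands, 14 windows (0.0426%) held GGGAATTTCCC. Among the 47 members 34 had a window, and Cxcl1, Cxcl2 and Cxcl3 were the only 3 genes of these with that stretch. The stretch was picked as the longest run with a kappaB match that these 3 promoters share. Its presence in the 3 was therefore fixed in advance. A kappaB match of any kind was present in 8 of the 34 genes, against 4.51% of all windows. The interferon-stimulated response element was present in 2 of the 34, Cxcl10 and Cxcl14, against 3.44% of all windows, and the interferon-gamma motif TTCNNNGAA in 3, against 8.30%. A match is a description of the letters and was not tested as a binding site.

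Tumours were compared with the normal lungs of their own strain label, and a gene was called at a limma adjusted p under 0.05 (Benjamini-Hochberg over all 18193 genes). Values after ± are standard errors of the fit unless marked SD, and a row of 3 values is in the order L858R, L858R+T790M and T790M tumours. In L858R tumours 20 of the 47 members were called, 4 higher and 16 lower, where 41.4% of all genes were called, 23.3% higher and 18.1% lower. In L858R+T790M tumours 20 were called, 9 higher and 11 lower, with 36.2% of all genes called (20.2% higher and 16.1% lower). The count of higher calls there was 5 without tumour 1 and 13 without tumour 2, 4 with only the groups compared in the fit, 14 with array weights and 15 against all 10 normal lungs. In T790M tumours 16 were called, 5 higher and 11 lower, with 39.8% of all genes called (21.9% higher and 17.9% lower). The share of members called, 42.6%, 42.6% and 34.0%, was thus near the share of all genes, and no direction was called for one tumour kind and the opposite for another. The median log2 difference over the 47 members was -0.19, -0.03 and -0.02, against 0.05, 0.03 and 0.00 over all genes.

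The receptors fell or were not called, with a single exception. Of 16 receptors 9, 9 and 6 were called lower in L858R, L858R+T790M and T790M tumours, and Ccr1 in L858R tumours was the one called higher. Of 31 ligands 3, 9 and 5 were called higher and 7, 2 and 5 lower. Over all genes 23.3%, 20.2% and 21.9% were called higher and 18.1%, 16.1% and 17.9% lower. In all, 8 members were called in the same direction in all 3 tumour kinds: Cxcl3 and Ccl6 higher, and Ccl11, Cx3cl1, Ccr2, Ccr6, Cxcr3 and Cxcr5 lower. The share of all genes called in the same direction in all 3 was not computed, so these 8 have no background beside them. The L858R+T790M and T790M comparisons share the FVB normals and so are not independent of each other.

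**Figure D1:**
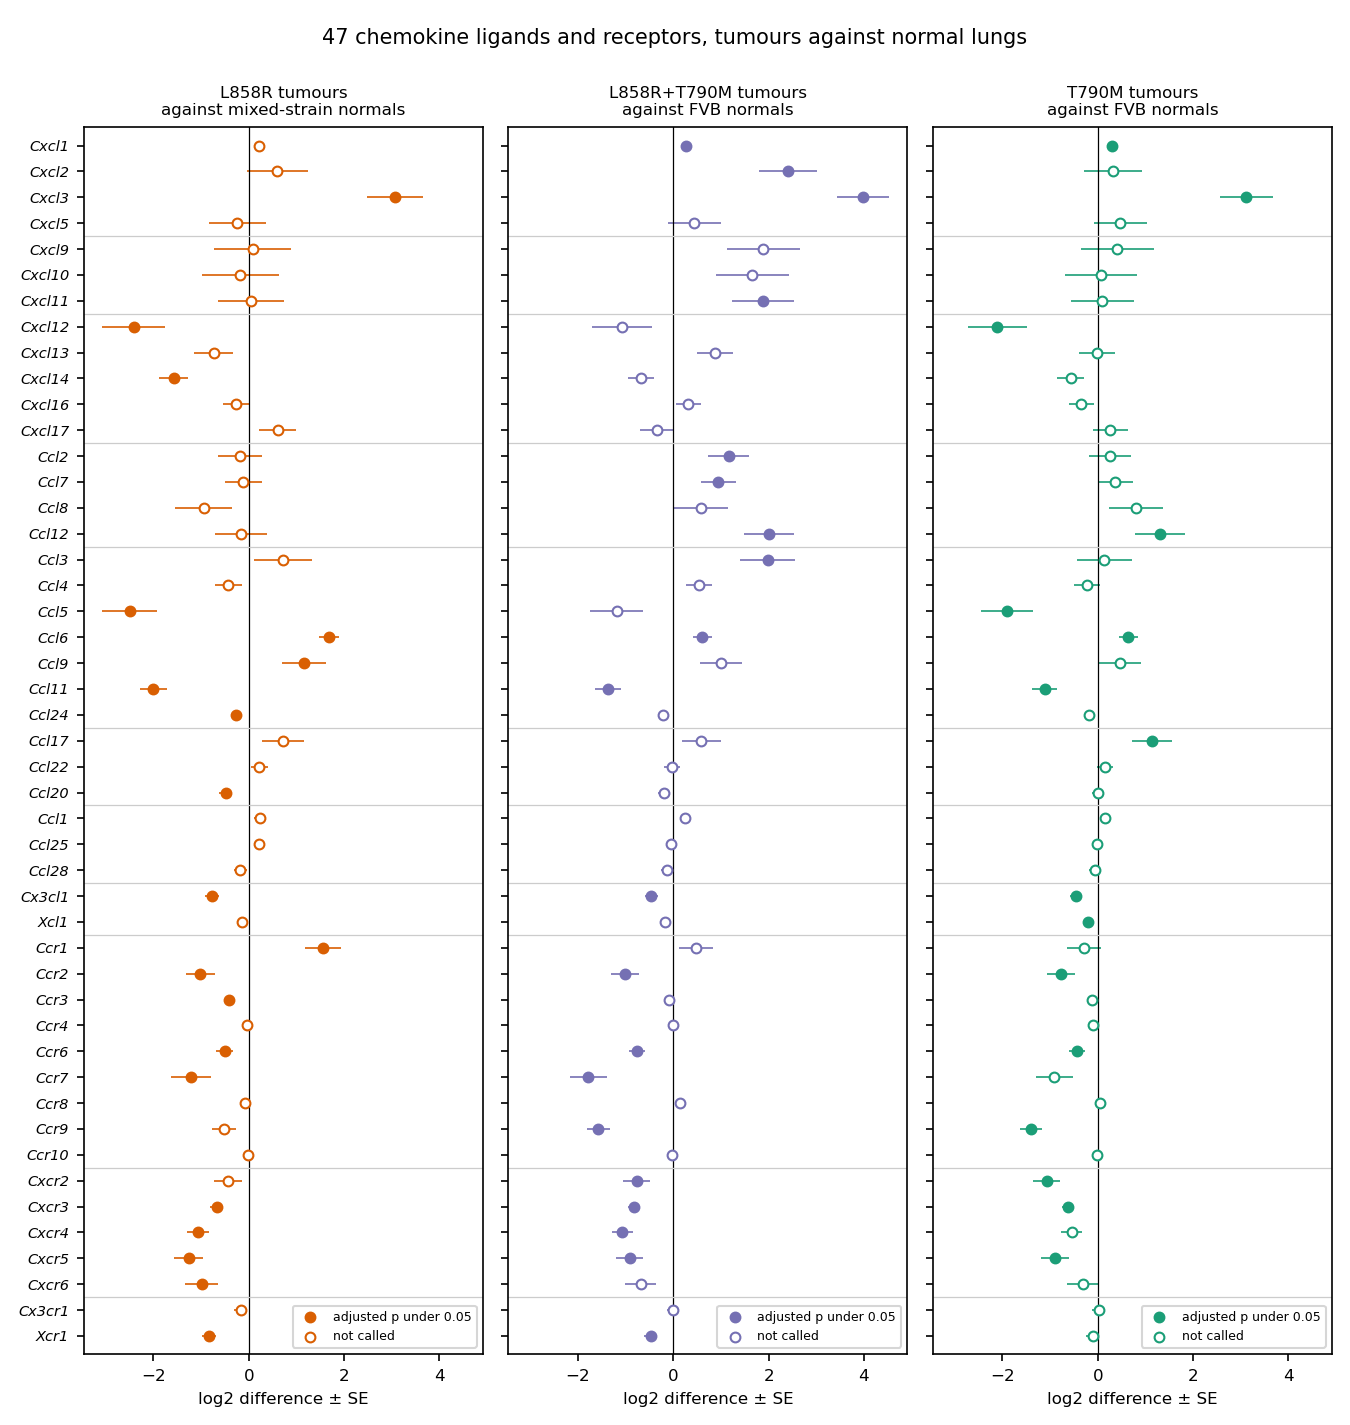
Log2 difference ± SE (x axis) of each of the 47 members (rows, grouped by role) between tumours and the normal lungs of the same strain label, for L858R (n = 4 against 5), L858R+T790M and T790M tumours (n = 5 against 5). Filled points were called at an adjusted p under 0.05. Cxcl3 lies farthest to the right in all 3 panels, and the receptors in the lower rows lie mostly left of 0.

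Ligands of Cxcr2, which recruit neutrophils, were led by Cxcl3. Cxcl3 read 3.69, 4.29, 3.80, 3.81 and 3.55 in FVB normals and 3.78, 3.45, 3.49, 3.64 and 3.34 in mixed-strain normals. It read 7.39, 6.21, 7.33 and 5.51 in L858R tumours, 10.13, 6.04, 7.20, 8.28 and 7.39 in L858R+T790M tumours and 7.28, 6.09, 8.40, 5.77 and 7.20 in T790M tumours. Every tumour array lay above every normal array, with the lowest tumour at 5.51 and the highest normal at 4.29. The normals lay far under the array medians of 7.21 to 7.34, so the fold sizes below start from dim signals. Its log2 difference was 3.07 ± 0.59 in L858R tumours (8.4-fold, adjusted p = 0.000232), 3.98 ± 0.55 in L858R+T790M tumours (15.8-fold, adjusted p = 9.16e-06) and 3.12 ± 0.55 in T790M tumours (8.69-fold, adjusted p = 0.000127). Each held in every alternative run that tested the gene, which the filter on dim genes left out. The L858R+T790M value was 3.35 without tumours 1 and 5. L858R+T790M and T790M tumours were not called different in Cxcl3, at 0.86 ± 0.55 with an adjusted p of 0.453.

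Cxcl2, a ligand of the same receptor made early in inflammation, was called in 1 of the 3 tumour kinds. It read 5.81, 6.07, 5.69, 5.79 and 5.77 in FVB normals and 5.56, 5.58, 5.35, 5.65 and 5.03 in mixed-strain normals. In L858R+T790M tumours it read 10.26, 6.94, 6.25, 6.91 and 10.78, above every FVB normal, with tumours 1 and 5 well above the other 3. L858R tumours read 6.49, 5.75, 6.25 and 5.64 and T790M tumours 6.28, 5.72, 7.06, 5.84 and 5.82, both overlapping their normals. The difference on the log2 scale was 2.40 ± 0.61 (5.29-fold, adjusted p = 0.00342) in L858R+T790M tumours, and it was 0.87, still called, without tumours 1 and 5. It was 0.60 ± 0.65 in L858R tumours (adjusted p = 0.485) and 0.32 ± 0.61 for T790M tumours (adjusted p = 0.719), neither called.

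Cxcl1, a neutrophil attractant with the same promoter stretch, gave a different size with each of its 3 probe sets. On the brightest, which represents the gene here, the log2 difference was 0.21 ± 0.09 in L858R tumours (adjusted p = 0.0605), 0.26 ± 0.09 in L858R+T790M tumours (adjusted p = 0.0197) and 0.30 ± 0.09 for T790M tumours (adjusted p = 0.0072). On the dimmest it was 1.44 ± 0.37, 2.65 ± 0.35 and 2.25 ± 0.35, all called, with adjusted p of 0.00358, 5.31e-06 and 3.61e-05. On the middle one it was 0.53 ± 0.24, not called, 1.51 ± 0.22 and 1.13 ± 0.22, both called. Adjusted p-values of the other probe sets are over all probe sets with 1 gene. The 3 probe sets thus ran in one direction but not to the same size, and the median over them gave 1.65 in L858R+T790M and 1.31 in T790M tumours, both called.
On the dimmest probe set Cxcl1 read 7.13, 7.89, 7.26, 7.09 and 7.36 in FVB normals and 6.26, 6.97, 7.05, 7.59 and 7.38 in mixed-strain normals. L858R tumours read 8.56, 8.11, 9.65 and 7.64, L858R+T790M tumours 10.43, 9.96, 9.02, 9.74 and 10.84 and T790M tumours 10.06, 9.46, 10.11, 8.84 and 9.49. All tumours lay above all normals of their own strain label on this probe set. On the brightest probe set the call in L858R+T790M tumours was lost without tumour 1 (0.21 on the log2 scale) or without tumour 2 (0.21), and the gene became called in L858R tumours without tumour 2 (0.26). Cxcl5, the remaining ligand of this kind, was not called in any comparison, with log2 differences of -0.24, 0.44 and 0.48 and arrays spread from 5.05 to 9.01.

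**Figure D2:**
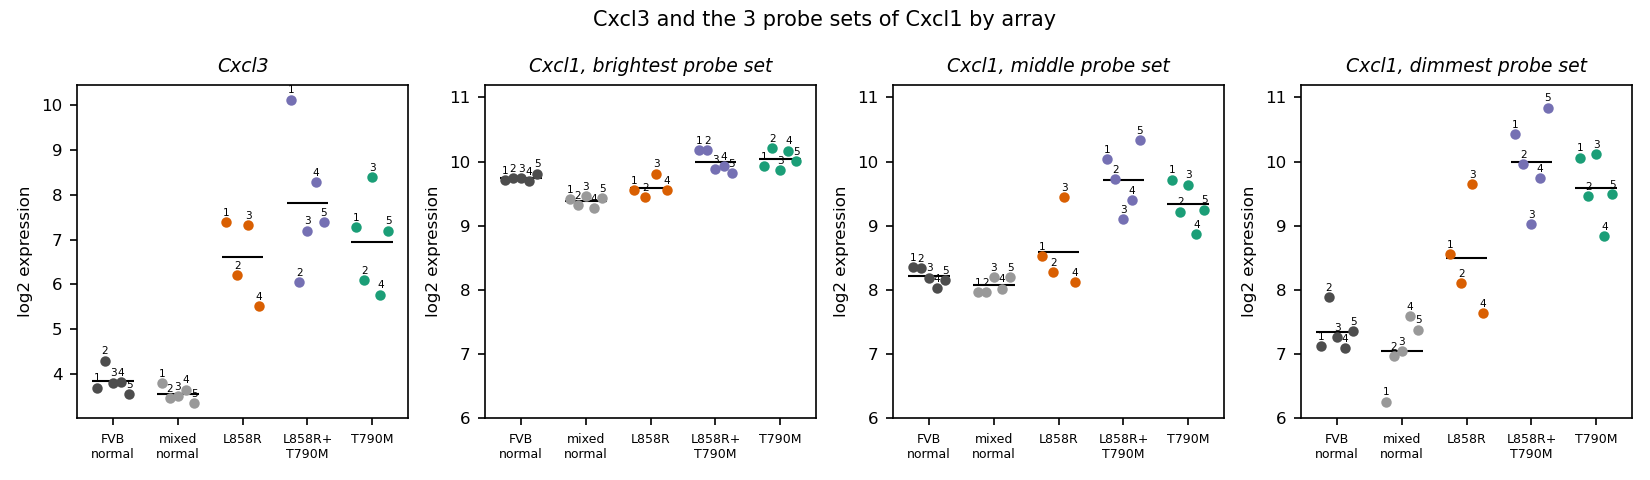
Log2 expression (y axis) of Cxcl3 and of each of the 3 probe sets of Cxcl1 in every array, by group (x axis); numbers are replicates and lines are group means. Cxcl3 and the dimmest probe set of Cxcl1 lie above the normals of the same strain label in all 14 tumour arrays, while on the brightest one no tumour mean lies more than 0.30 above that of its normals. Levels of different probe sets are not comparable.

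The interferon-induced ligands of Cxcr3, a receptor of activated T cells and NK cells, were high in 2 arrays. Cxcl11 read 9.65, 6.80, 6.70, 6.79 and 12.03 in L858R+T790M tumours, against 6.50, 6.34, 6.74, 6.40 and 6.55 in FVB normals and 6.31, 6.23, 6.54, 6.28 and 6.22 in mixed-strain normals. It read 6.31, 6.45, 6.37 and 6.35 in L858R tumours and 6.54, 6.38, 6.51, 6.55 and 7.03 in T790M tumours. Tumours 1 and 5 of the L858R+T790M group stood far above all other 22 arrays, and tumours 2 to 4, at 6.70 to 6.80, lay at the upper edge of the normals. This gave a log2 difference of 1.89 ± 0.65 (3.7-fold, adjusted p = 0.0274) with all arrays. It was 0.26, not called, without tumours 1 and 5, 0.98 and still called without tumour 5, 1.57 and not called without tumour 1, and 1.85 and not called without FVB normal 2. The other of the 2 probe sets of the gene gave 0.25 and was not called. The median over the 2, which is their average, gave 1.07, still called. It was 0.05 ± 0.69 in L858R tumours and 0.10 ± 0.65 in T790M tumours, neither called (adjusted p = 0.96 and 0.924).
Cxcl10 read 9.23 and 12.74 in those L858R+T790M tumours, against 6.40 to 6.58 in the other 3 and 6.51 to 6.85 in FVB normals. Cxcl9 read 9.62 and 12.37, against 6.23 to 7.88 in the other 3 and 6.29 to 6.99 in FVB normals. Neither gene was called in L858R+T790M tumours with all arrays (log2 difference 1.66 ± 0.76 and 1.89 ± 0.76, adjusted p = 0.0939 and 0.0577), nor in the other tumours. Leaving out one of the low tumours made them called: Cxcl10 without tumour 2, 3 or 4 (2.09 to 2.13) and Cxcl9 without tumour 2 or 3 (2.39 and 2.46). The SE of these differences was 0.65 to 0.76 for Cxcl9, Cxcl10 and Cxcl11.

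Across the 47 members, L858R+T790M tumours 1 and 5 were the 2 highest of their group for 16 genes, or 34.0%, against 11.9% of all genes. These were Cxcl2, Cxcl9, Cxcl10, Cxcl11, Cxcl13, Cxcl16, Ccl2, Ccl3, Ccl4, Ccl5, Ccl7, Ccl8 and Ccl12 among ligands and Ccr1, Ccr9 and Cxcr2 among receptors. The 2 arrays were picked after the values were seen, so their share of members is a description and not a test. The interferon-response list moved with the same 2 arrays, as given above; so did 6 of 9 neutrophil markers and 4 of 7 monocyte markers, while no T cell, B cell or endothelial marker did. T790M tumour 1, with an interferon-response mean of 9.46, read 7.74 for Cxcl9, 7.02 for Cxcl10 and 6.54 for Cxcl11. Its Cxcl9 and Cxcl10 lay above all FVB normals (up to 6.99 and 6.85), and its Cxcl11 lay within them (6.34 to 6.74). The part of these markers in the ligand values was not tested. Without tumours 1 and 5, 17 members were called in L858R+T790M tumours, 6 higher and 11 lower, in place of 20. Ccl2, Ccl7, Cxcl11, Ccl6, Cxcr5 and Xcr1 were no longer called, and Ccl5, Ccl17 and Xcl1 became called.

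**Figure D3:**
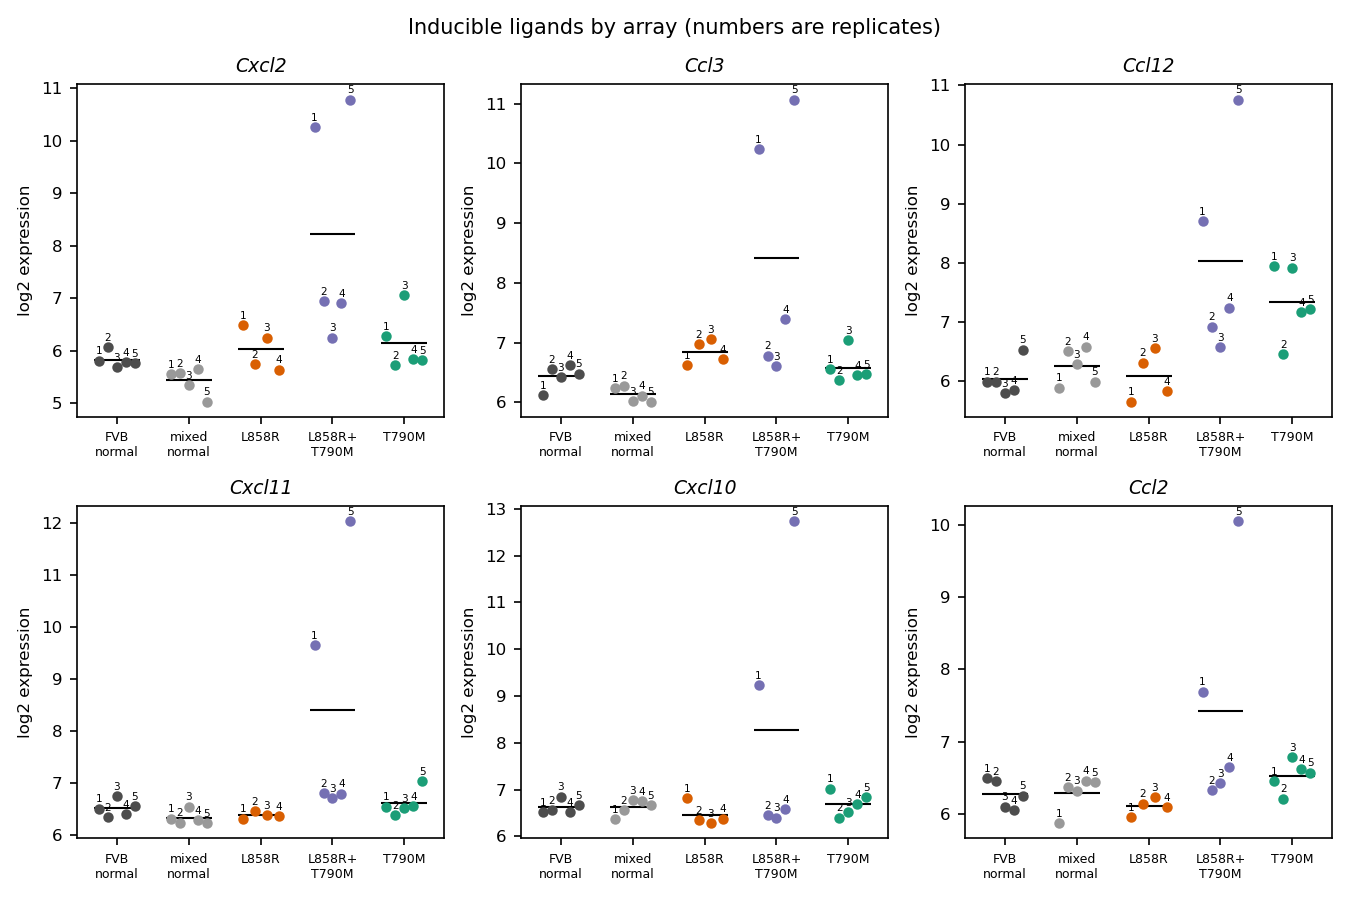
Log2 expression (y axis) of Cxcl2, Ccl3, Ccl12, Cxcl11, Cxcl10 and Ccl2 in each array, by group (x axis); numbers are replicates and lines are group means. L858R+T790M tumours 1 and 5 are the highest arrays in every panel. Tumours 2, 3 and 4 of that group stay near the normals for Cxcl10, Cxcl11 and Ccl2 and lie above the FVB normals for Cxcl2 and Ccl12.

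Of the 4 ligands of Ccr2, which draw monocytes from blood, 3 rose in L858R+T790M tumours. Ccl12 read 5.99, 5.99, 5.79, 5.85 and 6.53 in FVB normals and 5.89, 6.50, 6.28, 6.58 and 5.99 in mixed-strain normals. It read 8.70, 6.92, 6.57, 7.24 and 10.76 in L858R+T790M tumours, all above the FVB normals, 7.94, 6.46, 7.92, 7.17 and 7.21 in T790M tumours and 5.65, 6.31, 6.56 and 5.83 in L858R tumours. T790M tumour 2, at 6.46, lay just under FVB normal 5, at 6.53, and L858R tumours overlapped their normals. As a log2 difference this was 2.01 ± 0.52 (4.02-fold, adjusted p = 0.00409) in L858R+T790M tumours, 1.33 without tumour 5, and 0.88 without tumours 1 and 5, called each time. In T790M tumours it was 1.31 ± 0.52 (2.48-fold, adjusted p = 0.0496); that call was lost on leaving out any 1 array except FVB normal 5 or T790M tumour 2, with values of 1.16 to 1.35, and without FVB normals 2 and 5 together (1.46). It was also lost, at 1.31 each time, with the replicate number as a block (adjusted p = 0.0507), without the trend and with the median over probe sets. In L858R tumours it was -0.16 ± 0.55 and not called.

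Ccl2, the main monocyte attractant, read 7.69, 6.33, 6.42, 6.65 and 10.05 in L858R+T790M tumours and 6.49, 6.45, 6.10, 6.05 and 6.25 in FVB normals. It read 5.87, 6.37, 6.32, 6.46 and 6.44 in mixed-strain normals, 5.95, 6.14, 6.23 and 6.09 in L858R tumours and 6.45, 6.21, 6.78, 6.62 and 6.57 in T790M tumours. Tumour 5 and then tumour 1 of the L858R+T790M group were highest, and the other 3, at 6.33 to 6.65, lay within or just above the normals. The log2 difference was 1.16 ± 0.44 (2.23-fold, adjusted p = 0.0427), and 0.20, not called, without those 2 tumours. The call was also lost without tumour 1 (1.10) or tumour 5 (0.51), and without any 1 of the 5 FVB normals (1.11 to 1.22).
Ccl7, another Ccr2 ligand, had a log2 difference of 0.95 ± 0.37 in L858R+T790M tumours (adjusted p = 0.0472) and 0.17, not called, without tumours 1 and 5. Without tumour 5 alone it was 0.39 and called; without tumour 1 (0.93) or any 1 FVB normal (0.89 to 0.99) it was not called. Ccl8 was not called in any tumour kind (-0.95, 0.58 and 0.80). None of the 4 Ccr2 ligands was called in L858R tumours.

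Ligands of Ccr1 and Ccr3, which act on macrophages and eosinophils among other cells, moved both ways. Ccl6, a ligand that mouse macrophages make in quantity, read 12.08, 12.17, 12.06, 12.25 and 12.19 in mixed-strain normals and 13.94, 14.12, 13.68 and 13.61 in L858R tumours. It read 12.78, 12.76, 12.42, 12.51 and 12.39 in FVB normals, 13.16, 12.22, 13.45, 13.87 and 13.20 in L858R+T790M tumours and 13.01, 12.97, 13.56, 13.03 and 13.48 in T790M tumours. L858R and T790M tumours lay above all their normals, and L858R+T790M tumour 2, at 12.22, lay below them. Its log2 difference was 1.69 ± 0.21 in L858R tumours (3.22-fold, adjusted p = 2.07e-06), 0.61 ± 0.20 in L858R+T790M tumours (adjusted p = 0.0206) and 0.64 ± 0.20 for T790M tumours (adjusted p = 0.0141). The L858R+T790M call was lost without FVB normal 5 (0.56), tumour 3 (0.54) or tumour 4 (0.44), and without both tumours 1 and 5 or both FVB normals 2 and 5 (0.61 each). The rise in L858R tumours exceeded that in T790M tumours by 1.05 ± 0.29 and that in L858R+T790M tumours by 1.08 ± 0.29 after subtracting each strain's normals, but neither difference was called (adjusted p = 0.104 and 0.167). A second probe set of Ccl6 gave 2.43, 1.04 and 1.02, all called.
Of 11 alveolar macrophage markers 7 were higher and 1 lower in L858R tumours, among them Siglecf (log2 difference 2.33 ± 0.41), and the mean over the list was 10.14 to 10.93 in L858R tumours against 9.47 to 9.75 in mixed-strain normals. In L858R+T790M tumours 2 were higher and 2 lower, and in T790M tumours 1 higher and 3 lower. Marco, a scavenger receptor of these cells, was higher by 3.42 ± 0.55 in L858R and 3.65 ± 0.52 in L858R+T790M tumours (2.67 without tumours 1 and 5), where Ccl6 differed by 0.61, and stood at 0.80 ± 0.52, not called, in T790M tumours. The part of these cells in the Ccl6 values was not tested.

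Ccl9, also a Ccr1 ligand, read 8.47, 8.62, 9.08, 9.20 and 8.83 in mixed-strain normals and 10.69, 9.75, 9.31 and 10.27 in L858R tumours, which did not overlap. It read 9.99, 10.53, 9.13, 9.09 and 10.03 in FVB normals, 11.24, 9.14, 10.86, 11.52 and 11.01 in L858R+T790M tumours and 10.42, 8.98, 11.59, 10.24 and 9.86 in T790M tumours, which overlapped. The log2 difference in L858R tumours was 1.17 ± 0.46 (2.24-fold, adjusted p = 0.0465), a call lost without L858R tumour 1, 2 or 4 (0.94 to 1.25) or mixed-strain normal 1, 2, 3 or 5 (1.07 to 1.23), and 0.71, not called, against all 10 normal lungs. It was 1.00 ± 0.43 in L858R+T790M tumours, not called (adjusted p = 0.0768), and became called without tumour 2 (1.40), FVB normal 2 (1.19) or FVB normals 2 and 5 (1.35). In T790M tumours it was 0.46 ± 0.43 and not called.
Ccl3, an inflammatory macrophage product, read 6.12, 6.55, 6.42, 6.62 and 6.48 in FVB normals and 10.24, 6.78, 6.61, 7.39 and 11.07 in L858R+T790M tumours. It read 6.24, 6.28, 6.02, 6.11 and 6.01 in mixed-strain normals, 6.62, 6.98, 7.06 and 6.72 in L858R tumours and 6.55, 6.37, 7.04, 6.45 and 6.47 in T790M tumours. L858R+T790M tumours 1 and 5 were again highest, and tumour 3 overlapped the normals. L858R tumours all lay above their normals, although the difference of 0.71 ± 0.61 was not called (adjusted p = 0.373). The log2 difference in L858R+T790M tumours was 1.98 ± 0.58 (3.94-fold, adjusted p = 0.00948), 1.32 without tumour 5 and 0.49 without tumours 1 and 5, called each time; a fit of those groups alone did not call it. Ccl4, made together with Ccl3, was not called with all arrays (-0.43, 0.54 and -0.22), and became called in L858R+T790M tumours without tumour 2 or 4 (0.72 each).

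Ccl5, a product of T cells and NK cells, fell in 2 tumour kinds. It read 9.45, 10.72, 10.27, 10.70 and 10.27 in mixed-strain normals and 7.68, 7.67, 7.43 and 8.35 in L858R tumours. It read 10.02, 9.94, 11.88, 10.68 and 10.76 in FVB normals, 10.86, 8.18, 9.19, 8.16 and 10.95 in L858R+T790M tumours and 10.37, 7.32, 8.74, 8.49 and 8.82 in T790M tumours. L858R tumours lay below all their normals, T790M tumour 1 reached the FVB normals, and so did L858R+T790M tumours 1 and 5. The difference on the log2 scale was -2.50 ± 0.58 in L858R tumours (5.66-fold lower, adjusted p = 0.00148) and -1.91 ± 0.55 in T790M tumours (3.75-fold lower, adjusted p = 0.00803). For L858R+T790M tumours it was -1.19 ± 0.55 and not called (adjusted p = 0.0979); without tumour 1 it was -1.54, without tumour 5 -1.56 and without both -2.15, called each time. The NK cell markers Gzma and Klrd1 were lower in all 3 tumour kinds, at -2.64 ± 0.52 and -2.45 ± 0.41 in L858R tumours, -2.26 ± 0.49 and -2.44 ± 0.39 in L858R+T790M tumours and -2.29 ± 0.49 and -2.11 ± 0.39 in T790M tumours. In L858R+T790M tumours 1 and 5, where Ccl5 read 10.86 and 10.95, Klrd1 read 6.29 and 6.88, below all FVB normals (8.40 to 9.83). Their part in the Ccl5 values was not tested.

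Ccl11, the eosinophil attractant eotaxin, fell in all 3 tumour kinds. It read 6.88, 6.59, 6.33, 7.89 and 6.89 in mixed-strain normals and 5.23, 4.99, 4.77 and 4.67 in L858R tumours. It read 7.29, 6.53, 6.35, 6.45 and 7.07 in FVB normals, 5.42, 5.6, 5.20, 5.57 and 5.07 in L858R+T790M tumours and 6.56, 5.10, 5.40, 5.23 and 5.83 in T790M tumours. Only T790M tumour 1, at 6.56, reached the normals. This gave a log2 difference of -2.0 ± 0.29 (4-fold lower, adjusted p = 9.23e-06), -1.37 ± 0.27 (2.58-fold lower, adjusted p = 0.00038) and -1.11 ± 0.27 (2.16-fold lower, adjusted p = 0.00219), in the order L858R, L858R+T790M and T790M. These calls held in every alternative run that tested the gene, which the filter on dim genes left out. Ccl24, another eosinophil attractant, was lower in L858R tumours by a small amount (-0.28 ± 0.09, adjusted p = 0.0137), a call lost when the arrays were centred on their medians (-0.22), and was not called in the others, though it was called in L858R+T790M tumours without tumour 3 (-0.23). The receptor of these ligands, Ccr3, was called lower in L858R tumours (-0.42 ± 0.11) and not in the others (-0.09 and -0.12).

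Among ligands of Ccr4 and Ccr6, Ccl17, a dendritic cell product that acts on Ccr4 of T cells, read 8.03, 8.02, 7.72, 7.82 and 7.75 in FVB normals and 8.18, 8.42, 9.44, 10.54 and 8.44 in T790M tumours, which did not overlap. It read 7.61, 9.03, 9.10, 9.24 and 7.31 in L858R+T790M tumours, 8.69, 8.33, 8.48 and 8.31 in L858R tumours and 7.24, 7.61, 7.42, 8.95 and 7.43 in mixed-strain normals. In L858R+T790M tumours, tumours 1 and 5, which were highest for the inflammatory ligands, were the lowest for Ccl17. The log2 difference in T790M tumours was 1.14 ± 0.42 (2.2-fold, adjusted p = 0.0343), a call lost without tumour 3 (1.03), tumour 4 (0.75) or FVB normal 3, 4 or 5 (1.10 to 1.12), or FVB normals 2 and 5 together (1.15). It was 0.59 ± 0.42 in L858R+T790M tumours (adjusted p = 0.295), and 1.26 and called without tumours 1 and 5; in L858R tumours it was 0.72 ± 0.44 and not called. Ccl22, the other Ccr4 ligand, was not called (0.22, -0.03 and 0.16), nor was Ccr4 itself. Ccl20, the ligand of Ccr6, was lower in L858R tumours (-0.48 ± 0.13, adjusted p = 0.00569) and not called in the others. Ccl1, Ccl25 and Ccl28 were not called in any tumour kind with all arrays, and Ccl25 was called higher in L858R tumours without tumour 3 (0.35).

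Cxcl12, made by stromal and endothelial cells and bound by Cxcr4, fell in 2 tumour kinds. It read 11.17, 11.37, 11.90, 11.21 and 11.98 in mixed-strain normals and 8.70, 8.41, 9.44 and 9.89 in L858R tumours, which did not overlap. It read 10.49, 10.98, 11.22, 11.48 and 11.76 in FVB normals, 10.09, 9.13, 10.66, 9.13 and 11.54 in L858R+T790M tumours and 10.86, 8.36, 10.43, 6.19 and 9.57 in T790M tumours. T790M tumour 4, at 6.19, was the lowest array, and T790M tumour 1 and L858R+T790M tumours 3 and 5 reached the FVB normals. As a log2 difference this was -2.42 ± 0.67 in L858R tumours (5.34-fold lower, adjusted p = 0.00561) and -2.10 ± 0.63 in T790M tumours (4.3-fold lower, adjusted p = 0.0102). The T790M value was -1.38, still called, without tumour 4, -1.98, not called, without FVB normals 2 and 5, and -0.97, not called, as the median over its probe sets. For L858R+T790M tumours it was -1.08 ± 0.63 and not called (adjusted p = 0.196).
Many fibroblast and endothelial markers were lower in all 3 tumour kinds, also in L858R+T790M tumours, where Cxcl12 was not called. Of 10 fibroblast markers 8, 6 and 6 were called lower, led by Ogn (-5.33 ± 0.93, -4.78 ± 0.88 and -4.17 ± 0.88) and Tcf21 (-4.28 ± 0.62, -3.14 ± 0.59 and -3.25 ± 0.59). Among endothelial markers Tek stood at -3.56 ± 0.58, -3.31 ± 0.55 and -3.33 ± 0.55. Their part in the Cxcl12 values was not tested.
Cxcl14, a ligand of epithelium and stroma, read 9.65, 10.08, 10.15, 9.47 and 9.90 in mixed-strain normals and 8.38, 8.32, 8.42 and 7.97 in L858R tumours, which did not overlap. It read 8.57, 9.05, 9.57, 9.21 and 7.97 in FVB normals, 8.47, 7.55, 8.35, 8.29 and 8.32 in L858R+T790M tumours and 8.35, 7.64, 9.25, 7.83 and 8.46 in T790M tumours, which overlapped. The log2 difference was -1.58 ± 0.29 in L858R tumours (2.98-fold lower, adjusted p = 0.000184). It was -0.68 ± 0.28 in L858R+T790M tumours and -0.57 ± 0.28 in T790M tumours, neither called (adjusted p = 0.0618 and 0.112). Without FVB normal 5, the lowest FVB normal, both became called (-0.90 and -0.79), and without T790M tumour 3 the T790M value was -0.80 and called. In L858R, L858R+T790M and T790M tumours the means of Cxcl14 were 8.27 ± 0.21 (SD, n = 4), 8.20 ± 0.37 (SD, n = 5) and 8.31 ± 0.63 (SD, n = 5). The normal sets had means of 9.85 ± 0.29 (SD, n = 5) in the mixed strain and 8.87 ± 0.62 (SD, n = 5) in FVB, a difference of 0.98 ± 0.28 that was not called (adjusted p = 0.0842). Cxcl16, Cxcl17 and Cxcl13, the B cell attractant, were not called in any tumour kind; Cxcl13 was called higher in L858R+T790M tumours without tumour 2 (1.12), tumour 3 (1.15) or FVB normal 5 (1.05).

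**Figure D4:**
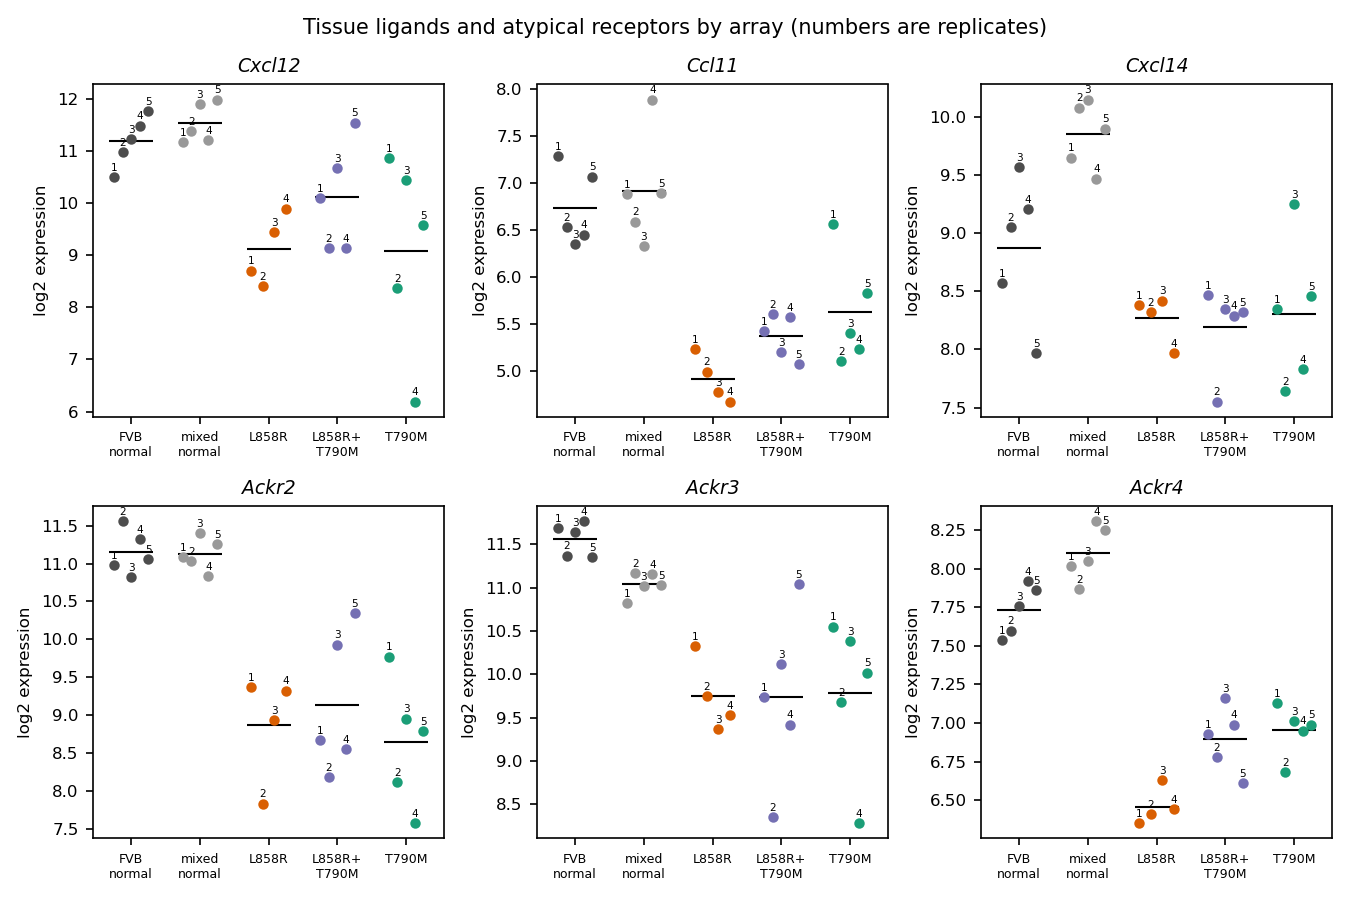
Log2 expression (y axis) of the tissue ligands Cxcl12, Ccl11 and Cxcl14 and of the atypical receptors Ackr2, Ackr3 and Ackr4 in each array, by group (x axis); numbers are replicates and lines are group means. All 14 tumour arrays lie below the normals of their own strain label for Ackr2, Ackr3 and Ackr4, and T790M tumour 4 is the lowest array for Cxcl12 at 6.19.

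Cx3cl1, or fractalkine, a membrane-bound ligand of endothelium and epithelium, was lower in all 3 tumour kinds by a modest amount: -0.77 ± 0.14, -0.46 ± 0.13 and -0.46 ± 0.13, with adjusted p of 0.00014, 0.00862 and 0.00819. Its 4 probe sets ran from -0.77 to -0.13, from -0.46 to -0.13 and from -0.46 to -0.12 in the same order. Beside the brightest, 1, 2 and 0 of them were called lower. The median over its probe sets was smaller, -0.23 in L858R and -0.24 in T790M tumours, and still called. Its receptor Cx3cr1 was not called (-0.17, 0.00 and 0.02). Xcl1, which attracts the dendritic cells that carry Xcr1, was lower in T790M tumours (-0.20 ± 0.07, adjusted p = 0.0251), a call lost without T790M tumour 2 or 4 (-0.18 each) or FVB normal 3 or 4 (-0.19 and -0.18). Xcr1 was lower in L858R tumours (-0.83 ± 0.15, adjusted p = 0.000127) and L858R+T790M tumours (-0.48 ± 0.14, adjusted p = 0.011) but not called in T790M tumours (-0.11 ± 0.14). The L858R+T790M call of Xcr1 was lost without tumours 1 and 5 (-0.37) or without FVB normals 2 and 5 (-0.44). Of 9 dendritic cell markers 4, 5 and 3 were called lower, led by Cd209a (-1.76 ± 0.22, -2.07 ± 0.21 and -1.63 ± 0.21), and 1 was called higher in L858R+T790M tumours.

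Cxcr5, which brings B cells into follicles, read 7.82, 7.42, 7.46, 7.17 and 8.12 in mixed-strain normals and 6.66, 6.13, 6.24 and 6.32 in L858R tumours, which did not overlap. It read 6.86, 7.63, 7.52, 7.55 and 8.22 in FVB normals, 6.37, 6.30, 7.45, 6.65 and 6.45 in L858R+T790M tumours and 7.38, 5.93, 6.59, 6.07 and 7.32 in T790M tumours. L858R+T790M tumour 3 and T790M tumours 1 and 5 reached the FVB normals. Its log2 difference was -1.26 ± 0.30 in L858R tumours (2.4-fold lower, adjusted p = 0.00195), -0.91 ± 0.29 in L858R+T790M tumours (adjusted p = 0.0152) and -0.90 ± 0.29 for T790M tumours (adjusted p = 0.0154). Without FVB normal 5 the FVB-based calls were lost (-0.75 and -0.73), and the T790M call also without tumour 2 (-0.72) or tumour 4 (-0.75). The L858R+T790M value was -0.76, not called, without tumours 1 and 5, and without FVB normals 2 and 5 neither FVB-based call was made (-0.67 and -0.65). Of 9 B cell markers 6, 5 and 4 were called lower. They were led by Ms4a1 and Cd79a, at -2.76 ± 0.49 and -1.70 ± 0.38 in L858R tumours, -2.65 ± 0.46 and -1.56 ± 0.36 in L858R+T790M tumours and -2.05 ± 0.46 and -1.26 ± 0.36 in T790M tumours. The same 3 tumour arrays that kept Cxcr5 had the highest B cell marker means of their groups, 8.05 in L858R+T790M tumour 3 and 8.28 in T790M tumours 1 and 5. The part of B cells in the Cxcr5 values was not tested.

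Ccr7, the homing receptor of naive T cells and mature dendritic cells, read 7.44, 7.31, 7.61, 7.61 and 7.92 in mixed-strain normals and 6.25, 6.24, 6.31 and 6.66 in L858R tumours. It read 7.33, 8.30, 8.80, 8.28 and 8.91 in FVB normals, 5.90, 6.74, 7.08, 6.45 and 6.52 in L858R+T790M tumours and 7.32, 6.09, 7.06, 9.32 and 7.29 in T790M tumours. L858R and L858R+T790M tumours lay below all their normals, while T790M tumour 4, at 9.32, was the highest of the 24 arrays. The difference on the log2 scale was -1.21 ± 0.41 in L858R tumours (2.32-fold lower, adjusted p = 0.022), a call lost without L858R tumour 2 (-1.17), and -1.79 ± 0.39 in L858R+T790M tumours (3.45-fold lower, adjusted p = 0.000967). In T790M tumours it was -0.91 ± 0.39, not called (adjusted p = 0.0689), but it was called without tumour 4 (-1.38) or without FVB normal 1 (-1.16). T790M tumour 4 was also the highest array for Ccl17, at 10.54.

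Ccr9, a receptor of thymocytes and gut-homing lymphocytes, read 6.49, 7.68, 7.47, 7.17 and 7.85 in FVB normals and 6.05, 5.26, 5.81, 5.82 and 5.87 in L858R+T790M tumours, which did not overlap. It read 6.55, 5.31, 6.19, 5.47 and 6.15 in T790M tumours, 5.91, 5.73, 6.45, 5.98 and 6.32 in mixed-strain normals and 5.54, 5.46, 5.51 and 5.69 in L858R tumours. T790M tumour 1 just reached FVB normal 1, and L858R tumours lay below all mixed-strain normals. This gave a log2 difference of -1.57 ± 0.24 in L858R+T790M tumours (2.97-fold lower, adjusted p = 2.23e-05) and -1.40 ± 0.24 in T790M tumours (2.63-fold lower, adjusted p = 7.72e-05). In L858R tumours it was -0.53 ± 0.25 and not called (adjusted p = 0.0973). The 5 probe sets of the gene ran from -1.57 to 0.0 in L858R+T790M tumours and from -1.40 to 0.08 in T790M tumours. Beside the brightest, 2 and 3 of them were called lower. The median over them gave a smaller fall, -0.76 in both FVB tumour kinds, still called.
The normal sets themselves differed in Ccr9: mixed-strain normals were lower than FVB normals, with a log2 difference of -1.25 ± 0.24 (adjusted p = 0.0153), and no array of the sets overlapped. That call was lost without FVB normal 5 (-1.12). The falls in the FVB tumours were thus measured from a higher normal level. In L858R, L858R+T790M and T790M tumours the means of Ccr9 were 5.55 ± 0.10 (SD, n = 4), 5.76 ± 0.30 (SD, n = 5) and 5.93 ± 0.52 (SD, n = 5).

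Cxcr3 was lower in all 3 tumour kinds, at -0.67 ± 0.13 (adjusted p = 0.000316), -0.83 ± 0.12 (adjusted p = 2.36e-05) and -0.63 ± 0.12 (adjusted p = 0.000373), and in each no tumour overlapped its normals. It was therefore low also in L858R+T790M tumours 1 and 5, at 7.25 and 7.39, the arrays in which its ligands Cxcl9, Cxcl10 and Cxcl11 were highest. Ccr6, of B cells and memory T cells, was lower, at -0.50 ± 0.18, -0.76 ± 0.17 and -0.43 ± 0.17, with adjusted p of 0.0286, 0.00126 and 0.0475. The L858R call of Ccr6 was lost without L858R tumour 2, 3 or 4 (-0.51 to -0.38) or mixed-strain normal 3 or 5 (-0.45 and -0.44). It was also lost with the replicate block (-0.49), with only the groups compared in the fit (-0.51) and under both other scalings (-0.45 and -0.44). Its T790M call was lost without any 1 array except FVB normal 1 or T790M tumour 2 (-0.45 to -0.33), with the replicate block (-0.43), with arrays centred on their medians (-0.42), with only the groups compared in the fit (-0.43) and against all 10 normal lungs (-0.31). Cxcr6, of tissue T cells, was lower in L858R tumours (-0.98 ± 0.35, adjusted p = 0.026), lost without L858R tumour 3 (-0.93) or 4 (-0.96) or mixed-strain normal 4 (-0.92), and not called in the others (-0.69 and -0.31). Ccr8 and Ccr10 were not called in any tumour kind.

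Cxcr4, the receptor of Cxcl12 and found on most white blood cells and endothelium, read 9.90, 10.15, 10.34, 10.13 and 10.25 in mixed-strain normals and 9.35, 9.34, 8.94 and 8.71 in L858R tumours. It read 9.47, 9.87, 10.06, 10.12 and 10.20 in FVB normals, 8.75, 7.82, 9.39, 9.03 and 9.36 in L858R+T790M tumours and 9.33, 9.46, 9.09, 9.52 and 9.60 in T790M tumours. L858R and L858R+T790M tumours lay below all their normals, and T790M tumours overlapped theirs through FVB normal 1. As a log2 difference this was -1.07 ± 0.23 in L858R tumours (2.1-fold lower, adjusted p = 0.000851) and -1.07 ± 0.22 in L858R+T790M tumours (2.1-fold lower, adjusted p = 0.000556). It was -0.54 ± 0.22 in T790M tumours (adjusted p = 0.0544) and became called without FVB normal 1 (-0.66).

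The receptors of blood monocytes and neutrophils depended on which FVB normals were used. Ccr2, the monocyte receptor, read 7.76, 9.05, 7.77, 7.84 and 9.14 in FVB normals, where arrays 2 and 5 stood above the other 3, and 8.14, 7.89, 7.89, 8.42 and 8.01 in mixed-strain normals. It read 7.18, 7.14, 6.95 and 6.95 in L858R tumours, 7.30, 6.73, 7.47, 7.27 and 7.76 in L858R+T790M tumours and 8.56, 6.76, 7.36, 7.43 and 7.56 in T790M tumours. L858R tumours lay below all mixed-strain normals; L858R+T790M tumour 5 was level with the lowest FVB normal, and T790M tumour 1 lay among them. The log2 difference was -1.01 ± 0.31 in L858R tumours (2.02-fold lower, adjusted p = 0.0114), a call that held in every alternative run. It was -1.01 ± 0.29 in L858R+T790M tumours (2.01-fold lower, adjusted p = 0.00928) and -0.78 ± 0.29 for T790M tumours (adjusted p = 0.038), and without FVB normals 2 and 5 these were -0.48 and -0.26, neither called. The T790M call was also lost without FVB normal 2 (-0.59) or 5 (-0.57) alone, and without T790M tumour 2, 3, 4 or 5 (-0.78 to -0.58).
Cxcr2, the neutrophil receptor for Cxcl1, Cxcl2 and Cxcl3, read 7.02, 8.60, 6.76, 6.87 and 8.54 in FVB normals and 7.19, 6.85, 6.87, 6.76 and 7.04 in mixed-strain normals. It read 6.82, 6.45, 6.25 and 6.51 in L858R tumours, 7.25, 6.75, 6.52, 6.57 and 6.85 in L858R+T790M tumours and 6.68, 6.38, 6.49, 6.47 and 6.40 in T790M tumours. FVB normals 2 and 5 were far above all other arrays, and T790M tumours lay below every FVB normal. Its log2 difference was -1.07 ± 0.28 in T790M tumours (2.1-fold lower, adjusted p = 0.00374), and -0.40, still called, without FVB normals 2 and 5. It was -0.77 ± 0.28 in L858R+T790M tumours (adjusted p = 0.034), and -0.095, not called, without them. That call was also lost without FVB normal 2 (-0.51) or 5 (-0.52) or L858R+T790M tumour 2 (-0.76), 3 (-0.70) or 4 (-0.72), and against all 10 normal lungs (-0.46). In L858R tumours the difference was -0.43 ± 0.29 and not called. Cxcr2 was thus not called higher in any tumour kind, although its ligand Cxcl3 was higher in all 3.
The neutrophil markers S100a8 and S100a9 moved with Cxcr2: S100a8 read 13.97 and 13.98 in FVB normals 2 and 5 against 10.32 to 11.66 in the other FVB normals. Of 9 neutrophil markers 6 were called lower in T790M tumours, S100a9 at -3.44 ± 1.03 and S100a8 at -3.11 ± 0.94, none was called in L858R+T790M tumours and 1, Trem1, was higher in L858R tumours (0.83 ± 0.17). Without FVB normals 2 and 5 0 of the 9 were called in T790M tumours by limma and 1 was lower at an unadjusted p under 0.05, with S100a9 at -2.04 ± 1.08 (adjusted p = 0.166) and S100a8 at -1.86 ± 1.00 (adjusted p = 0.172), and 1 was called higher in L858R+T790M tumours. FVB normals 2 and 5 were the 2 highest of their group for 6 of the 16 receptors (Ccr1, Ccr2, Ccr9, Cx3cr1, Cxcr2 and Cxcr5), or 37.5%, against 9.98% of all genes, and for 1 of the 31 ligands, Ccl9. This pair was also picked after the values were seen, so the share of receptors is a description and not a test. Without FVB normals 2 and 5 the L858R+T790M calls of Ccl2, Ccl6, Ccl7, Ccr2, Cxcl11, Cxcr2, Cxcr5 and Xcr1 were lost, and those of Ccl9, Ccr1 and Cxcl14 were made. The T790M calls of Ccl12, Ccl17, Ccr2, Ccr6, Cxcl12 and Cxcr5 were lost without them, and that of Cxcl14 was made. The part of these cells in the receptor values was not tested.

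**Figure D5:**
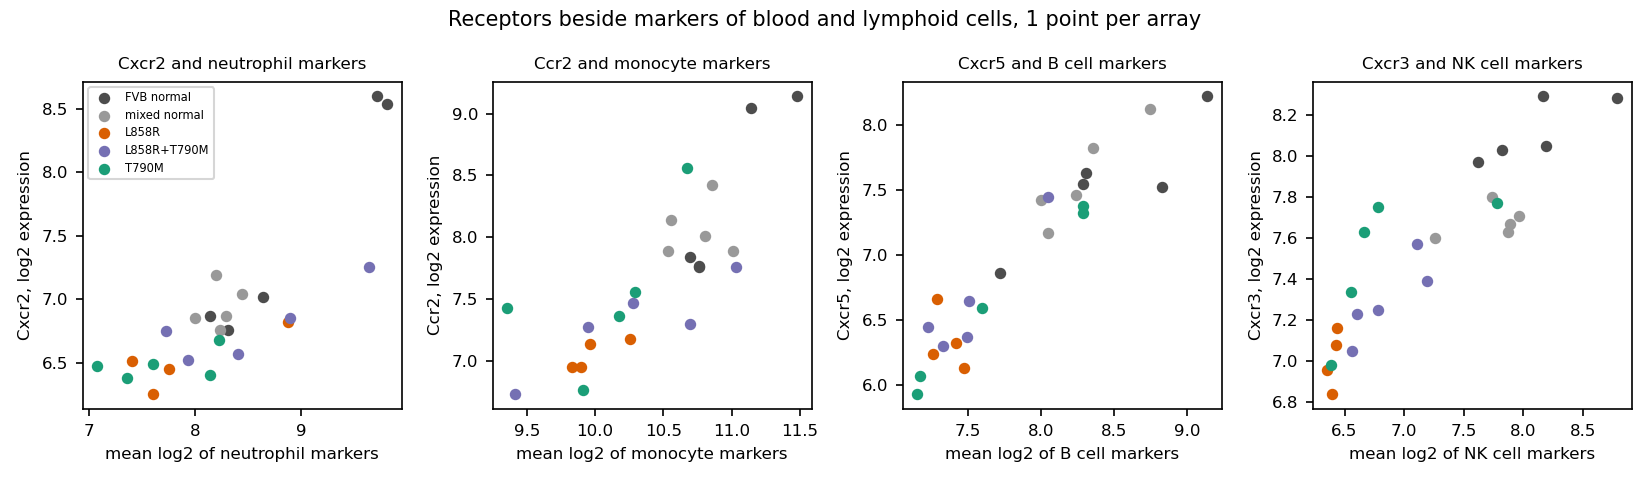
Log2 expression of 4 receptors (y axes) against the mean log2 expression of marker genes of a cell type (x axes) in each of the 24 arrays, coloured by group: Cxcr2 with neutrophil, Ccr2 with monocyte, Cxcr5 with B cell and Cxcr3 with NK cell markers. In the first panel FVB normals 2 and 5 are the highest arrays on both axes, and L858R+T790M tumour 1, with a neutrophil mean of 9.63, reads 7.25 for Cxcr2. No receptor is in its marker list.

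Ccr1, a receptor of monocytes, macrophages and neutrophils that binds Ccl3, Ccl6 and Ccl9, was the only receptor called higher. It read 7.56, 7.81, 7.57, 7.86 and 7.75 in mixed-strain normals and 9.61, 9.48, 9.01 and 8.95 in L858R tumours, which did not overlap. It read 8.16, 9.74, 7.95, 7.99 and 9.43 in FVB normals, 9.70, 8.01, 8.51, 9.25 and 10.20 in L858R+T790M tumours and 8.23, 7.95, 8.51, 8.42 and 8.69 in T790M tumours, which overlapped. The difference on the log2 scale was 1.55 ± 0.38 in L858R tumours (2.93-fold, adjusted p = 0.00216), and the call held in every alternative run. It was 0.48 ± 0.36 in L858R+T790M tumours (adjusted p = 0.321) and -0.29 ± 0.36 for T790M tumours (adjusted p = 0.55). Without FVB normals 2 and 5, the highest FVB normals, the L858R+T790M value was 1.10 and called. The tumour effects in L858R and T790M tumours differed by 1.85 ± 0.52, which was not called (adjusted p = 0.108). Mixed-strain normals were below all FVB normals for Ccr1, and the log2 difference of -0.94 ± 0.36 was again not called (adjusted p = 0.2).

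Comparisons between tumour kinds called no member with all arrays. L858R+T790M against T790M tumours gave 0 of 47 at a limma adjusted p under 0.05, where 1.59% of all genes were called. Without adjustment, 11 members had a limma p under 0.05, and the share of all genes at that threshold was not computed. The largest differences were in Cxcl2 (2.08 ± 0.61, adjusted p = 0.0852), Ccl3 (1.84 ± 0.58, adjusted p = 0.104) and Cxcl11 (1.79 ± 0.65, adjusted p = 0.157), all higher in L858R+T790M tumours. Cxcl2 and Ccl3 became called without L858R+T790M tumour 2 (2.41 and 2.25) or tumour 3 (2.58 and 2.29), and neither was called without tumours 1 and 5. Xcr1 was called lower in L858R+T790M than in T790M tumours without T790M tumour 2 (-0.37 with it and -0.53 without). After subtracting each strain's normals, L858R against L858R+T790M tumours gave 0 of 47 called, with 0.0715% of all genes called. There 8 members had an unadjusted p under 0.05, again with no share of all genes computed. L858R against T790M tumours likewise gave 0 called, with 0.418% of all genes called, and the smallest adjusted p among members was that of Ccl6 (0.104). Here too 8 members had an unadjusted p under 0.05, with no share of all genes computed. Without T790M tumour 2, the Xcr1 difference between these effects was -0.88 and called. A call in one tumour kind and not in another is therefore not shown here to be a difference between them.

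The normal sets differed in 2 of the 47 members, where 1.04% of all genes were called, 0.676% higher and 0.363% lower. Ccr9 and Cxcl1 were lower in mixed-strain than in FVB normals, Ccr9 as given above and Cxcl1 with a log2 difference of -0.36 ± 0.09 on its brightest probe set (adjusted p = 0.0445). The Cxcl1 call was lost without any 1 array except mixed-strain normal 3 and was not made on its other 2 probe sets. At an unadjusted p under 0.05 there were 11 members, 3 higher and 8 lower, with no share of all genes computed at that threshold. RNA quality was read from Gapdh, as the log2 signal of its 3′ control probe set minus that of its 5′ one, and the normal sets stood apart in it, at -0.31 to -0.22 in mixed-strain and -0.20 to -0.08 in FVB normals. Its mean was -0.15 in L858R, -0.12 in L858R+T790M and -0.18 in T790M tumours, against -0.26 in mixed-strain and -0.15 in FVB normals. The part of RNA quality in these results was not tested.

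Beyond the members of the rule, lists of genes that capture, cut or respond to chemokines were counted. Their background is the share of all genes: 23.3%, 20.2% and 21.9% called higher and 18.1%, 16.1% and 17.9% lower. Ppbp, a platelet chemokine that acts on Cxcr2, was lower, at -3.53 ± 0.76, -2.78 ± 0.71 and -3.15 ± 0.71, while Pf4, another platelet and macrophage chemokine, was higher in L858R+T790M (1.34 ± 0.42) and T790M tumours (2.04 ± 0.42) and not called in L858R tumours (0.12 ± 0.45). The list of atypical receptors, which bind chemokines without G protein signalling, with chemerin (Rarres2) and its receptor Cmklr1, held 7 genes, of which 6 were called lower in each tumour kind. Ackr2, a scavenger of inflammatory CC ligands, was lower, at -2.26 ± 0.42, -2.01 ± 0.40 and -2.51 ± 0.40. Ackr3, which removes Cxcl12, was lower, at -1.29 ± 0.41, -1.83 ± 0.38 and -1.78 ± 0.38, and so was Rarres2, at -2.59 ± 0.40, -1.94 ± 0.38 and -2.45 ± 0.38. Ackr1, the venule receptor that presents chemokines, was the exception, with 0.32 ± 0.19, 0.56 ± 0.18 (called higher) and 0.09 ± 0.18. The Ackr1 value in L858R+T790M tumours was 0.22, not called, without tumours 1 and 5, and 0.57, not called, without FVB normals 2 and 5. Endothelial and lymphatic markers were lower in the same tumours, with Lyve1 at -2.35 ± 0.61, -3.31 ± 0.57 and -3.26 ± 0.57, and their part in these values was not tested.

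Of 11 genes that process or anchor chemokines, 5 were called higher in each tumour kind and 3, 1 and 3 lower. Mmp12, the macrophage elastase that cuts several chemokines, was higher by 3.44 ± 0.50, 3.08 ± 0.47 and 2.88 ± 0.47, and Sdc1, a heparan sulfate proteoglycan of epithelium, by 1.57 ± 0.11, 1.64 ± 0.10 and 1.46 ± 0.10. Of 21 genes that carry the receptor signal inside the cell, 2, 0 and 0 were called higher and 7, 8 and 9 lower, among them Gng2 (-1.83 ± 0.20, -1.36 ± 0.19 and -1.39 ± 0.19), a G protein gamma subunit, and Arrb1 (-1.27 ± 0.18, -1.27 ± 0.17 and -1.17 ± 0.17), an arrestin. Of 21 NF-kappaB and inflammatory genes, 2, 3 and 1 were called higher and 5, 4 and 3 lower. Csf2, the growth factor GM-CSF, was higher in all 3 tumour kinds (1.28 ± 0.17, 1.14 ± 0.16 and 0.87 ± 0.16), Vcam1, an adhesion molecule, was lower in L858R tumours (-2.56 ± 0.33), and Ptgs2, the cyclooxygenase of inflammation, was lower in T790M tumours (-2.48 ± 0.47). Of 17 interferon-response genes, 0, 1 and 1 were called higher and 4, 0 and 1 lower, with Gbp2 (-2.01 ± 0.76) and Ifit3 (-1.66 ± 0.63) lower in L858R tumours, Cd274 higher in L858R+T790M tumours (1.14 ± 0.44) and Mx1 higher in T790M tumours (2.02 ± 0.47). Cd274 read 10.66 and 12.08 in L858R+T790M tumours 1 and 5 and 8.44, 9.27 and 9.75 in tumours 2 to 4; without tumours 1 and 5 its difference was 0.26 ± 0.31 and not called, 0 interferon-response genes were higher by limma (0 also at an unadjusted p under 0.05) and 5 were lower, Gbp2 (-1.66) and Ifit3 (-1.35) among them. Without FVB normals 2 and 5 Cd274 was not called either (1.19). Without tumours 1 and 5 the NF-kappaB and inflammatory genes counted 1 higher and 7 lower in L858R+T790M tumours, and without FVB normals 2 and 5 they counted 1 higher and 2 lower. Without T790M tumour 1 they counted 1 higher and 5 lower in T790M tumours, and the interferon-response genes 1 higher and 3 lower. The lists were counted and not tested as sets. A count near the share of all genes is not a result about its list.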

How the data were processed

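RNA from 24 mouse lung samples was hybridised to Affymetrix mouse expression arrays. The deposited values are on the log2 scale, and the submitters' processing notes name RMA as the authors' method, with no version or settings given in what was used here. Array medians were 7.21 to 7.34 and no further scaling was applied. The number of arrays limits the precision.

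Of 45101 probe sets, 64 controls were left out; 34945 had 1 gene symbol in GEO's platform annotation, 932 several and 9160 none. Symbols were updated through Entrez identifiers for 34741 probe sets, while 204 remained under an older name. The probe set with the highest mean represented each of 18193 genes.

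Group means of all 24 arrays were fitted with limma 3.58.1 (R 4.3.3; lmFit, then eBayes with a trend), with Benjamini-Hochberg adjustment over all genes and calls at an adjusted p under 0.05. Differences between L858R tumours and the other tumours were taken after subtracting the normals of each strain label. The procedure was tested on simulated data. Alternatives changed scaling, probe set choice, dim-gene filter, weights, trend, replicate block, samples and left-out arrays; leaving out pairs of arrays, and arrays for the other gene lists, was added after seeing the data.

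Every member was named, with every array given for those called in a tumour comparison at a log2 difference of 1 or more. Genes of other lists were named as the 2 largest called differences of a list; Ackr3, Ackr1 and single values of Sdc1, Ackr2 and Pf4 were added after their values were seen. The members and lists were chosen with earlier results of these data known. Promoters came from RefSeq (GRCm38.p6), with windows for 34 of 47 members.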

Additional observations from a re-analysis of the deposited data

Results flagged for a closer look

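In 14 of 235 sets of arrays (47 members in 5 groups), or 5.96%, the highest or lowest array stood apart from the others of its group by Dixon's test, where chance gives about 1 in 20. Among FVB normals these were Ccl12 in array 5 (6.53), Xcr1 in array 5 (7.36) and Ccl25 in array 1 (6.60). Among mixed-strain normals they were Ccl17 in array 4 (8.95), Ccl2 in array 1 (5.87) and Cxcl11 in array 3 (6.54). In L858R tumours, Ccr7 stood apart in array 4 (6.66). In L858R+T790M tumours, Ccl9 (9.14) and Cxcl14 (7.55) were low in array 2, and array 5 stood apart for Ccl1 (5.97) and Ccl25 (6.66). In T790M tumours, Ccl20 (7.0) and Cxcl11 (7.03) were high in array 5 and Ccl3 (7.04) in array 3.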

How the results depend on the processing

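The counts of called members in the 3 tumour comparisons kept within 1.5 times of 20, 20 and 16 under the other scalings, probe set choice, weights, trend, block and samples run. The exception was the filter on dim genes, which left fewer members to test and gave 10 in L858R+T790M and 10 in T790M tumours. Centring arrays on their medians gave 6 higher and 14 lower in L858R tumours. Leaving out 1 array gave 17 to 19 in L858R, 17 to 23 in L858R+T790M and 11 to 17 in T790M tumours, and leaving out FVB normals 2 and 5 gave 15 and 11 in the FVB-based comparisons. The 2 calls between normal sets became 1 with arrays centred on their medians, with quantile normalization again, with the median over probe sets or without the dimmest genes, 12 with array weights, 8 with only those groups in the fit, and 0 to 2 on leaving out 1 array. Between tumour kinds, array weights gave 1 in L858R+T790M against T790M tumours, and leaving out 1 array gave 0 to 2. L858R against L858R+T790M gave 0 on leaving out any 1 array and 2 as a direct difference that ignores strain. L858R against T790M gave 1 with array weights, 2 with only those groups, 4 as a direct difference, and 0 to 1 on leaving out 1 array. Except for the filter, the cause was not tested.

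Of 58 member calls in the 7 comparisons, 34 were kept in every alternative that tested the gene. Another 24 were lost in at least 1 (6 of them only when arrays were left out), and 0 reversed. Members removed by the filter on dim genes, Cxcl3 and Ccl11 among them, were not tested in that run and could not be lost there. The replicate numbers were not taken as pairs: the correlation of same-numbered deviations exceeded 0.1 in 0 of 4, 1 of 5 and 3 of 5 pairs of the tumour and normal comparisons, in 4 of 5 of L858R+T790M with T790M, and in 0 of 5 between normal sets. With the replicate number as a block, 18, 23 and 14 members were called in L858R, L858R+T790M and T790M tumours, 0 in each comparison between tumour kinds and 1 between normal sets.

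With only the groups compared in the fit, calls were lost for Ccl2 (1.16), Ccl3 (1.98), Ccl6 (0.61), Ccl7 (0.95), Cxcl11 (1.89) and Cxcr2 (-0.77) in L858R+T790M tumours, for Ccr2 (-0.78), Cxcl12 (-2.10) and Cxcr5 (-0.90) in T790M tumours and for Ccl24 (-0.28) in L858R tumours, beside Ccr6 as given above. Array weights ended the calls of Ccl9 (1.08) and Ccl24 (-0.26) in L858R and Cxcr2 (-0.73) in L858R+T790M tumours. Quantile normalization again ended those of Ccl24 (-0.19) in L858R, Cxcl1 (0.21) and Cxcr2 (-0.73) in L858R+T790M and Xcl1 (-0.12) in T790M tumours. The median over probe sets ended those of Ccl9 (1.15) and Cxcr6 (-0.85) in L858R tumours, the replicate block that of Ccl9 (1.18), and all 10 normal lungs as the control that of Xcl1 (-0.07) in T790M tumours.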
